A study of Mus musculus with 8 samples.

Results

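The TOB and BTG genes form a small family of antiproliferative genes, and 5 of them were described here in islets, namely Tob1, Tob2, Btg1, Btg2 and Btg3, among 53012 genes in the table. They were taken from the table by matching its Ensembl identifiers to mouse symbols. Tob1 was chosen by its measured level, which was higher in βIgf1rKD islets, so its difference between the groups is given as a description without a test, whereas the other members were taken as its relatives. Islets came from 4 βIgf1r and 4 βIgf1rKD mice, all aged 17 months, and each mouse gave its own bulk RNA-seq library. All 8 mice carried Igf1r flox/flox, in which exon 3 of the gene for the IGF1 receptor is flanked by loxP sites. The βIgf1rKD mice (Ins1-CreERT2 +/-) also expressed a tamoxifen-inducible Cre recombinase driven by an insulin promoter, and were given tamoxifen at 0.075 mg/g in 5 daily injections. The βIgf1r mice (Ins1-CreERT2 -/-) had no Cre and were injected with corn oil, so that loss of Igf1r, Cre and tamoxifen cannot be told apart. Isolation followed 7 days later. Both sexes were present in each group and are not marked per mouse.

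Proteins of this family share an N-terminal BTG domain, through which they bind the CAF1 deadenylases, encoded by Cnot7 and Cnot8, of the CCR4-NOT complex. TOB1 and TOB2 have in addition a C-terminal region that binds the poly(A)-binding protein PABPC1, and so bring the deadenylase to mRNA, whose poly(A) tail is then shortened. Forced expression of the members slows entry into S phase in many cell types, BTG1 and BTG2 help keep lymphocytes quiescent, and Btg2 and Btg3 are targets of p53. Adult β-cells, the main cells of the islet, seldom divide.

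Library size ranged from 21633925 to 42391106 counts, and each member was covered by at least 334 counts in each mouse. The β-cell markers, a list of 9 genes with Ins1 and Ins2, were all detected and summed to between 127665 and 203404 CPM (counts relative to library size, which was adjusted by TMM factors). Of the markers of cells outside the endocrine islet, those of acinar cells had the highest sum. The 12 acinar markers made up 2.48% to 18.3% of a βIgf1r library and 5.22% to 20.8% of a βIgf1rKD library, and all 12 had a higher fitted level in βIgf1rKD islets, although 0 of them had an unadjusted p under 0.05 by edgeR. The 12 endothelial markers all had a lower fitted level in βIgf1rKD islets, 7 of them with an unadjusted p under 0.05 by edgeR, and their sum ranged from 528 to 647 CPM in the βIgf1r group and from 460 to 520 CPM in the βIgf1rKD group, without overlap. Their part in the levels of the family was not tested. Xist, which is transcribed from the inactive X chromosome, was above 8 on the log2 CPM scale in 1 βIgf1r and 3 βIgf1rKD mice and below 3 in the others. The level of Igf1r, 53.6 ± 7.21 CPM (SD, n = 4) for βIgf1r islets against 50.7 ± 4.996 CPM (SD, n = 4) for βIgf1rKD islets, did not separate the groups (log2 fold change -0.08, standard error 0.11; permutation p = 0.543, exact and two-sided). The count covers the whole gene and does not isolate exon 3. Across the 15474 genes tested, 0 passed an adjusted p of 0.05 in edgeR, 637 (4.12%) had an unadjusted p under 0.05, and DESeq2 and limma-voom gave 8 and 1 genes with an adjusted p under 0.05.

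All 5 members were detected in every mouse and passed the filter on low counts. To compare genes with one another, CPM was divided by the exon length in kb, from the union of exons in GENCODE M21 on GRCm38. Per kb, Btg2 had the highest mean level over the 8 mice, 32.4 ± 3.70 CPM per kb (SD, n = 8), followed by Btg1 at 23.1 ± 6.18 and Tob1 at 19.4 ± 4.23 CPM per kb (SD, n = 8). Btg3, at 9.04 ± 1.57 CPM per kb, and Tob2, at 3.03 ± 0.582 CPM per kb (SD, n = 8), were the low members. The 2 TOB genes were therefore far apart in level, while the 3 genes at the top lay close together.

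Neighbours in this order were compared within each mouse. Btg2 exceeded Btg1 in 7 of 8 mice, with ratios from 0.993 to 2.16, and Tob1 exceeded Btg3, and Btg3 exceeded Tob2, in all 8. Btg1 and Tob1 did not keep an order, as Btg1 was above Tob1 per kb in 4 of 4 βIgf1r mice but in 1 of 4 βIgf1rKD mice, M145. This change of order follows in part from the choice of Tob1 by its higher level in βIgf1rKD islets. With the longest transcript as the length, the order of the means was the same, but the means of Tob2 and Btg3 were 4.86 and 12.04 CPM per kb, Btg2 exceeded Btg1 in 6 of 8 mice and Tob1 exceeded Btg3 in 7 of 8. Tob2 and Btg3 have several annotated transcripts, so their levels per kb depend on which length is used. Of the relatives outside the list, Btg4, an oocyte gene, and the Btg1 pseudogenes, Btg1-ps1 and Btg1-ps2, had 0 counts in all mice, so no counts of Btg1 were assigned to these copies.

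**Figure D1:**
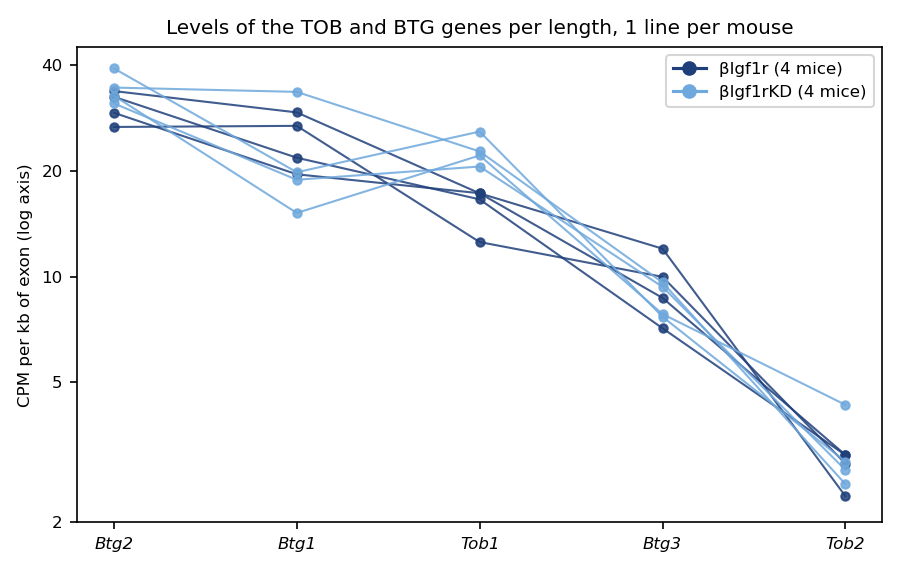
Levels of the 5 genes in CPM per kb of exon on a log axis, ordered by their mean over the 8 mice, with 1 line per mouse coloured by group. Btg2 lies at the top and Tob2 at the bottom, and the lines cross between Btg1 and Tob1.

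Tob1 is the member that drew attention to the family. The gene (ENSMUSG00000037573) spans bases 94211454 to 94215495 of chromosome 11 (GRCm38, plus strand), with 1 annotated transcript of 2 exons and 2288 bases and no overlapping gene. Its protein recruits the deadenylase to mRNA and also binds SMAD proteins. In βIgf1r islets Tob1 was at 28.7 (M148), 39.5 (M151), 37.9 (M152) and 39.5 CPM (M153). In βIgf1rKD islets it was at 51.9 (M145), 50.6 (M146), 59.2 (M149) and 47.1 CPM (M150). All 4 βIgf1rKD mice lay above all 4 βIgf1r mice, and the lowest of them was 19.1% above the highest βIgf1r mouse. The group means were 36.4 ± 5.19 CPM (SD, n = 4) and 52.2 ± 5.08 CPM (SD, n = 4), a fold of 1.43 and a log2 fold change of 0.52 (standard error 0.12). This is the difference for which Tob1 was chosen, and of all genes tested 0.956% were likewise higher in βIgf1rKD islets without overlap, 1.27% were lower without overlap and 2.22% were either. M148 lay below the other βIgf1r mice, and without it the log2 fold change was 0.42.

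The acinar and Xist levels were set beside Tob1 because they also differed between mice. M148, the lowest mouse for Tob1, had the lowest acinar score (the mean log2 CPM of the 12 markers), 10.43, and M149, the highest for Tob1, had the highest, 14.06. With the acinar score as a covariate the log2 fold change of Tob1 was 0.44, and with Xist as a covariate it was 0.55. Among the mice with high Xist, Tob1 was at 39.5 CPM in the 1 βIgf1r mouse and at 47.1 to 51.9 CPM in the 3 βIgf1rKD mice. Among those with low Xist, it was at 28.7 to 39.5 CPM in 3 βIgf1r mice and at 59.2 CPM in the 1 βIgf1rKD mouse. As the groups do not overlap for Tob1, any such division of the mice gives the same direction, and each holds a group of 1 mouse. In bulk islet RNA, more cells of a type with much Tob1 and more Tob1 RNA per cell cannot be told apart, which holds for the other members too.

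**Figure D2:**
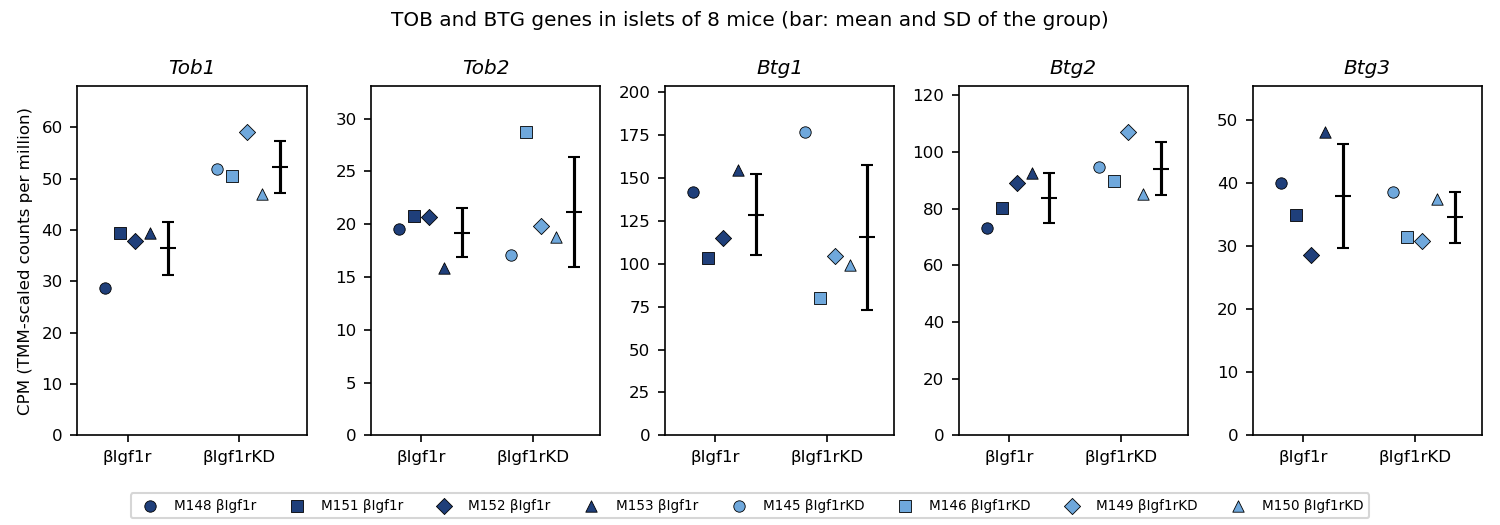
CPM of each gene in each mouse (symbols) with the mean and SD of each group of 4 mice (bars), on axes that start at 0. Tob1 is the gene whose groups do not overlap, at 28.7 to 39.5 CPM in βIgf1r and 47.1 to 59.2 CPM in βIgf1rKD mice, while the groups overlap for the other 4.

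Tob2, the closest relative of Tob1, binds the same deadenylase and PABPC1. The gene (ENSMUSG00000048546) lies on chromosome 15 from 81848272 to 81858796 on the minus strand. Its exons overlap the span of another gene, Gm49476, whose strand and exons were not examined. The libraries were stranded, but whether the counting used strand is not given in the sources used here. Tob2 was at 19.6 (M148), 20.7 (M151), 20.7 (M152) and 15.8 CPM (M153) in βIgf1r islets. In βIgf1rKD islets it was at 17.1 (M145), 28.8 (M146), 19.8 (M149) and 18.8 CPM (M150). The groups overlapped, with M146 above all other mice and the other 3 βIgf1rKD mice within the range of the βIgf1r mice. The log2 fold change was 0.14 (standard error 0.17; 95% interval -0.24 to 0.51; edgeR adjusted p = 0.987), and without M146 it was -0.05.

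Btg1 is a gene of growth arrest that is abundant in resting lymphocytes. It (ENSMUSG00000036478) spans bases 96617006 to 96622809 of chromosome 10, plus strand. Btg1 had the highest CPM of the family and varied most, with 142 (M148), 103 (M151), 115 (M152) and 155 CPM (M153) in βIgf1r islets. In βIgf1rKD islets it was at 177 (M145), 80.0 (M146), 105 (M149) and 99.5 CPM (M150). The βIgf1rKD group held both the highest and the lowest mouse, and its coefficient of variation was 36.8% against 18.4% in βIgf1r mice. The log2 fold change was -0.16 (standard error 0.23; 95% interval -0.68 to 0.37; edgeR adjusted p = 0.988). Without M145 it was -0.44 and without M146 it was -0.02, so that single mice set its size. The 11 leukocyte markers summed to 113 to 187 CPM in βIgf1r and 129 to 264 CPM in βIgf1rKD mice. Of these markers, 8 had enough counts to be tested. The part of leukocytes in the level of Btg1 was not tested.

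Btg2, known also as Tis21 or Pc3, is an immediate-early gene and a p53 target. It (ENSMUSG00000020423) lies on chromosome 1 from 134075170 to 134079120 on the minus strand, with 1 annotated transcript. Btg2 was at 73.1 (M148), 80.2 (M151), 89.1 (M152) and 92.5 CPM (M153) in βIgf1r islets. In βIgf1rKD islets it was at 94.6 (M145), 89.7 (M146), 107 (M149) and 85.3 CPM (M150). All 4 βIgf1rKD mice were above the median of the βIgf1r mice and 2 were above the highest of them. The log2 fold change was 0.17 (standard error 0.10; 95% interval -0.06 to 0.40; edgeR adjusted p = 0.987; permutation p = 0.171, exact and two-sided). It was the member that varied least, with a coefficient of variation of 11.4% over the 8 mice. With the acinar score as a covariate the log2 fold change was 0.08.

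Btg3, whose protein can bind the transcription factor E2F1, lies on chromosome 16 from 78332637 to 78377192 on the minus strand (ENSMUSG00000022863). Its exons overlap the span of Cxadr, a receptor gene on the opposite strand. Whether they overlap exons of Cxadr was not examined. Reads of any shared exon part could have gone to either gene if strand was not used. Btg3 was at 40.1 (M148), 34.9 (M151), 28.6 (M152) and 48.2 CPM (M153) in βIgf1r islets. In βIgf1rKD islets it was at 38.6 (M145), 31.4 (M146), 30.9 (M149) and 37.5 CPM (M150). All βIgf1rKD mice lay inside the range of the βIgf1r mice. The log2 fold change was -0.13 (standard error 0.15; 95% interval -0.48 to 0.21; edgeR adjusted p = 0.987), and without M153, the highest mouse, it was -0.00061.

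Of Tob2, Btg1, Btg2 and Btg3, 0 of 4 had an unadjusted p under 0.05, where 4.12% of all genes did. The fitted levels of Tob2 and Btg2 were higher and those of Btg1 and Btg3 lower in βIgf1rKD islets, each with an interval that included 0. No test of the difference between members was made, as Tob1 was chosen for its value.

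**Figure D3:**
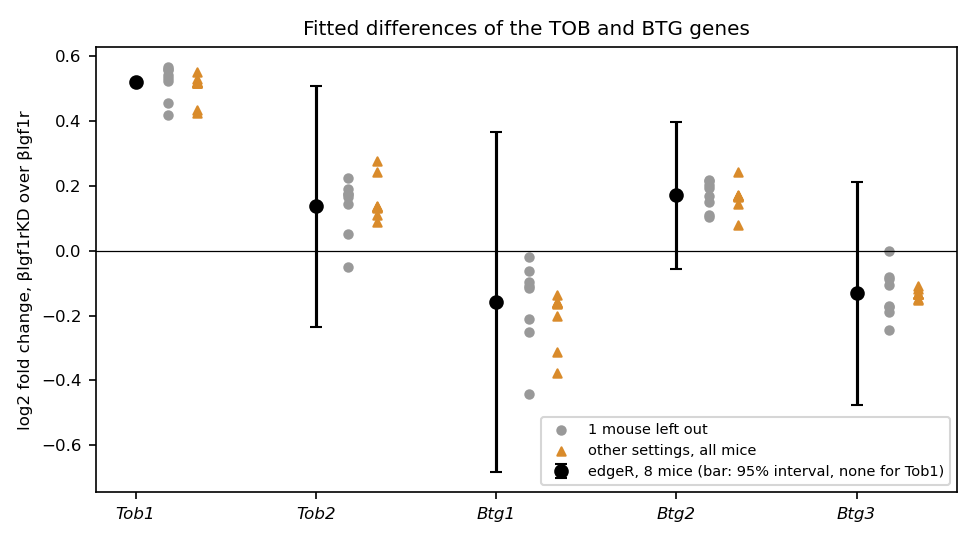
Log2 fold change of each gene in βIgf1rKD over βIgf1r islets by edgeR from all 8 mice (black, with 95% intervals except for Tob1), with each mouse left out in turn (grey) and under other settings (orange). The points of Tob2 cross 0 and those of Btg1 and Btg3 come close to it. Those of Tob1, which was chosen for this difference, lie between 0.42 and 0.57. As its groups do not overlap, leaving out a mouse could not reverse its direction.

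To see whether the members varied together, log2 CPM was correlated over the 8 mice for the 10 pairs of genes, with exact permutation tests and adjustment over the 10 pairs. After adjustment 0 of 10 pairs had p under 0.05. The highest correlation was that of Tob1 and Btg2 (Pearson's r = 0.84, permutation p = 0.00972, adjusted p = 0.0511; Spearman's rho = 0.74, permutation p = 0.0458, adjusted p = 0.192). Tob1 was chosen for its group difference, which enters each of its correlations over all 8 mice, so their p-values give no independent support. When each gene was centred on its group means, the correlation of Tob1 and Btg2 was 0.85, which was not tested. Without centring and with 1 mouse left out it lay between 0.70 and 0.89. It fell to 0.37 without both M148 and M149, the mice farthest from the median of Tob1. Its size thus depended in part on these mice, although leaving them out also narrows the range of Tob1. As a ratio within each library, Tob1 to Btg2 lay between 0.393 and 0.493 in βIgf1r mice and between 0.549 and 0.564 in βIgf1rKD mice. Because Tob1 was chosen for its higher level in βIgf1rKD islets, the separation of this ratio follows in part from that choice.

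Tob2 and Btg1 ran in opposite directions (Pearson's r = -0.82, permutation p = 0.0102, adjusted p = 0.0511; Spearman's rho = -0.71, permutation p = 0.0576, adjusted p = 0.192). The correlation was -0.80 after centring on the group means and -0.70 without M146 and M153. M146 had the most Tob2 and the least Btg1. The remaining pairs had r between -0.68 and 0.65, among them Tob2 and Btg3 at -0.68 and Btg1 and Btg3 at 0.65. The 2 TOB genes did not vary together detectably (r = 0.15, permutation p = 0.723), nor did Btg1 and Btg2 (r = -0.03, permutation p = 0.954).

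Of the members, Btg2 went most closely with acinar RNA. Its correlation with the acinar score was 0.81 (permutation p = 0.00809; Spearman's rho = 0.81, permutation p = 0.0218), which after adjustment over 15 relations of the members with the acinar score, Xist and the TMM factor had p = 0.109 and p = 0.209. Without the 2 mice farthest from the median acinar score, the correlation of Btg2 with that score was 0.45. Btg2 also ran opposite to the TMM factor (r = -0.78, permutation p = 0.0145, adjusted p = 0.109). As CPM is divided by this factor, the relation is partly built into the measure. The acinar score is made of CPM divided by the same factor. Score and factor were 10.43 and 1.23 in M148 and 14.06 and 0.835 in M149. The relations of Btg2 with the score and with the factor can therefore not be taken as separate. For Tob1 the correlation with the acinar score was 0.65 (permutation p = 0.0839, adjusted p = 0.419), and for Btg1, Btg3 and Tob2 it lay between -0.39 and 0.19. The value of Tob1 includes the group difference for which it was chosen. Centred on the group means it was 0.58, which was not tested. The part of acinar RNA in the levels of Btg2 and Tob1 was not tested beyond these values.

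**Figure D4:**
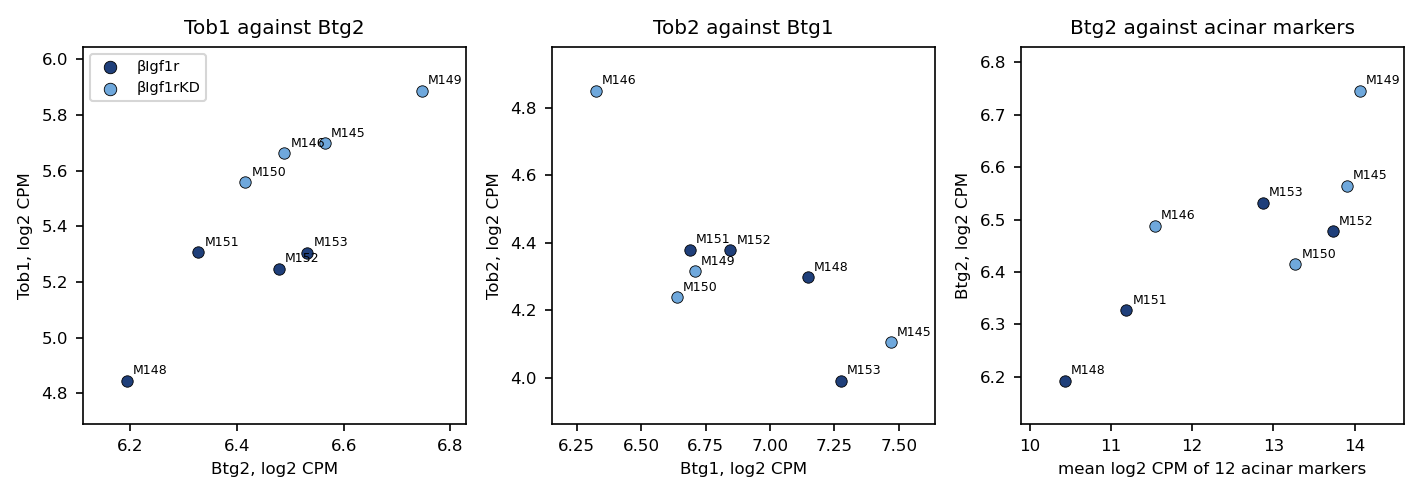
Log2 CPM of Tob1 against Btg2, of Tob2 against Btg1, and of Btg2 against the mean log2 CPM of the 12 acinar markers, with 1 point per mouse coloured by group. Tob1 and Btg2 are lowest in M148 and highest in M149, M146 combines the highest Tob2 with the lowest Btg1, and Btg2 is lowest in M148, the mouse with the least acinar RNA.

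The upstream sequences of the members that varied together or in opposite directions are shown to let their elements be compared. They are the 250 bases before the RefSeq start on GRCm38.p6, which were found for all 5 members, and read 5′ to 3′ on the strand of the gene. They come from chr11:94211204-94211453 (plus strand) for Tob1, chr1:134079156-134079405 (minus strand) for Btg2, chr15:81858327-81858576 (minus strand) for Tob2 and chr10:96616751-96617000 (plus strand) for Btg1. Capitals mark the cAMP response element TGACGTCA, its core TGACG and CCAAT, each on either strand, and TATAAA on the strand of the gene. In Btg2 both matches of TGACG lie within the full element.
Tob1: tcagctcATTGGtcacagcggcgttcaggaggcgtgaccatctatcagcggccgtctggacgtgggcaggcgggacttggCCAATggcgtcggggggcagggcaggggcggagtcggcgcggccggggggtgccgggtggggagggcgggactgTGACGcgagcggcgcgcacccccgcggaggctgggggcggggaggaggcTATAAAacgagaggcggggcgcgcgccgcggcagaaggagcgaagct
Btg2: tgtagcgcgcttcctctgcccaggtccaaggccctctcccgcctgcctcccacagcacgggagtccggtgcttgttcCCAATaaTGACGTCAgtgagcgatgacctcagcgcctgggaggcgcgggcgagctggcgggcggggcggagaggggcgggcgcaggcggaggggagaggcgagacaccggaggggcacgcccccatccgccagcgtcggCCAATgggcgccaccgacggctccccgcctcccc
Tob2: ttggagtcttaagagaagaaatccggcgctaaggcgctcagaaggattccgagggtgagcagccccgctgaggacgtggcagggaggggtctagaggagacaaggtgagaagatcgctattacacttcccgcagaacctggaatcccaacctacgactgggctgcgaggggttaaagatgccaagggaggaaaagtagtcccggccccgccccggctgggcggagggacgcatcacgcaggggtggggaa
Btg1: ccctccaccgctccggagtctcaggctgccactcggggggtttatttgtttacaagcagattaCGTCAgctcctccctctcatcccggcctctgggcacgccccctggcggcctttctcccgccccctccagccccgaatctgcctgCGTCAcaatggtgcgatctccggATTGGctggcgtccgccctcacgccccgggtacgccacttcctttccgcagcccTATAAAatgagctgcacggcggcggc

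Btg2 held 1 full cAMP response element, which began 166 bases before the start, and 1.55% of 32851 such windows of all genes held one. Tob1 held 1 TGACG and Btg1 held 2, whereas Tob2 and both windows of Btg3 held 0, against 17.8% of all windows with at least 1. TATAAA, found in 7.59% of windows, began 47 bases before the start in Tob1 and 26 bases before it in Btg1, and was not in the windows of Tob2, Btg2 or Btg3. CCAAT was present in Tob1, Btg1, Btg2 and Btg3 and in 33.8% of all windows. Of the 4 sequences shown, that of Tob2 was thus the one with no capitals. However, the Tob2 window lies inside the gene as annotated in GENCODE M21, which ends at base 81858796 on the minus strand. The Btg3 window at 78376811-78377060 likewise lies inside its gene. Both windows of Btg3 held 0 TGACG, 0 TATAAA and 1 CCAAT. For Tob2 no window at another annotated start was examined, so its lack of elements is that of this start only. These are matches of letters and not shown to be bound.

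For each member the 3 genes with the most similar pattern over the 8 mice were sought among 8664 genes with a mean of at least 10 CPM. For Tob1 they were Ttc17 (r = 0.95), Eci1, an enzyme of mitochondrial fatty acid oxidation (r = 0.94), and Cct5, a subunit of the cytosolic chaperonin (r = 0.93). Their differences between the groups were smaller than that of Tob1, with log2 fold changes of 0.16, 0.16 and 0.11, and centred on the group means the correlations were 0.89, 0.79 and 0.81. Btg2 went with genes of protein synthesis, which were Mrps24 of the mitochondrial ribosome (r = 0.97), Rps24 of the cytosolic ribosome (r = 0.96) and the elongation factor gene Eef1b2 (r = 0.94).

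Tob2 went with Thumpd1 (r = 0.995), Limk2, a kinase of cofilin (r = 0.98), and Esyt1, which tethers the endoplasmic reticulum to the plasma membrane (r = 0.97). Btg1 went with Rbm33 (r = 0.96), the lysosomal sialic acid transporter gene Slc17a5 (r = 0.95) and the translation initiation factor gene Eif5 (r = 0.93). Btg3 went with the riboflavin kinase gene Rfk, Casc4 and Atp6ap2, an accessory protein of the vacuolar proton pump, each at 0.98. The 5 members shared none of these genes. These values were picked as the highest of 8664 and are a description of 8 mice, with no test.

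The genes around the family were examined in 8 lists with 128 genes, of which 125 were tested. By edgeR 0 of them had an adjusted p under 0.05, 7 had an unadjusted p under 0.05 and a higher level in βIgf1rKD islets, and 0 had an unadjusted p under 0.05 and a lower level. The 7 make up 5.60% of the genes tested, against 4.12% of all genes (2.23% higher and 1.89% lower), and DESeq2 gave 9 higher and 1 lower. All 7 stood in the lists of p53 targets and of immediate-early and dissociation genes.

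The CCR4-NOT complex, through which the family acts, had 0 genes with an unadjusted p under 0.05. All 12 subunit genes were tested, 9 with a higher and 3 with a lower fitted level, and the median log2 fold change was 0.03, against 0.01 for all genes. The smallest p-values belonged to Tnks1bp1 (log2 fold change 0.19, standard error 0.15) and to Cnot6l, a catalytic subunit (log2 fold change -0.30, standard error 0.15). The mean of Cnot6l was 111 ± 20.2 CPM (SD, n = 4) for βIgf1r mice against 89.98 ± 12.8 CPM (SD, n = 4) for βIgf1rKD mice, with overlap between the groups. For both the adjusted p by edgeR was 0.987.

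Genes of poly(A) tail metabolism and of decapping, 14 in all, had a median log2 fold change of 0.06, with Pabpc4, a poly(A)-binding protein, at 0.31 (standard error 0.19) and the deadenylase gene Parn at -0.17 (standard error 0.10). The 15 genes of mRNA-binding proteins that recruit deadenylases had a median of -0.04, with Zfp36l2, a protein that binds AU-rich elements, at 0.23 (standard error 0.12) and Cpeb3, whose protein works with TOB1, at -0.09 (standard error 0.09). Of 17 genes for partners and kinases of the family 16 were tested, with a median of -0.03, Rps6ka1 at 0.36 (standard error 0.19) and Prmt1, a methyltransferase that binds BTG1 and BTG2, at -0.10 (standard error 0.07). Among the 16 transcription factors of growth arrest and quiescence, whose median was -0.0011, the smallest p-value of the genes with a higher level was that of Foxo3 at 0.23 (standard error 0.13), and of those with a lower level that of Foxo1 at -0.12 (standard error 0.07). In each of these 4 lists, 0 genes had an unadjusted p under 0.05.

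Proliferation genes, the opposite pole to the family, had 0 members with an unadjusted p under 0.05. Of 21 genes 19 were tested, 11 with a higher and 8 with a lower fitted level and a median log2 fold change of 0.03. Birc5, an inhibitor of apoptosis in mitosis, was at 0 to 0.800 CPM in βIgf1r and 0.444 to 0.678 CPM in βIgf1rKD mice, and the mitotic kinase gene Plk1 was at 0.190 to 0.655 and 0.148 to 0.566 CPM. At such levels differences were hard to detect at this depth.

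Of the 16 p53 targets other than Btg2, 12 had a higher fitted level in βIgf1rKD islets and the median log2 fold change was 0.29. An unadjusted p under 0.05 was found for 2 of them, Aen, an exonuclease gene, and Perp, a desmosome component that acts in apoptosis (edgeR, adjusted p = 0.987 for both). Aen was at 20.1 (M148), 21.97 (M151), 26.4 (M152) and 21.7 CPM (M153) in βIgf1r mice and at 24.4 (M145), 26.8 (M146), 32.7 (M149) and 25.8 CPM (M150) in βIgf1rKD mice. Perp was at 6.58 to 9.08 CPM in βIgf1r mice and at 14.6 (M145), 6.39 (M146), 37.0 (M149) and 9.37 CPM (M150) in βIgf1rKD mice. Thus M149, which also had the most Tob1, Btg2 and acinar RNA, was the highest for both genes. With the acinar score as a covariate the median was 0.07 and 0 of the 16 had an unadjusted p under 0.05, as also without M148, M151, M153 or M149, whereas 4 had one with Xist as a covariate, where the median was 0.35, 4 without M146 and 3 without M150.

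Among 18 immediate-early and dissociation genes 13 had a higher fitted level, and the median log2 fold change was 0.26. Jun, Myc, Socs3 and the heat shock genes Hspa1a and Dnajb1 had an unadjusted p under 0.05, and all 5 were higher in βIgf1rKD islets (edgeR, adjusted p = 0.987 for each). Jun, a subunit of the transcription factor AP-1, was at 14.1 to 21.96 CPM in βIgf1r and 19.0 to 27.2 CPM in βIgf1rKD mice (log2 fold change 0.39, standard error 0.16). Myc was at 3.14 to 3.98 CPM in βIgf1r mice and at 11.1 (M145), 2.93 (M146), 10.8 (M149) and 4.39 CPM (M150) in βIgf1rKD mice, so that M145 and M149 were the mice with high Myc. These were the βIgf1rKD mice with the most acinar RNA, at 18.2% and 20.8% of counts. The βIgf1r mouse M152, at 18.3%, had 3.595 CPM of Myc. By edgeR the log2 fold change of Myc was 1.003, and with the acinar score as a covariate it was 0.498. The part of acinar RNA in the level of Myc was not tested beyond these values. Nr4a1 had the largest decrease of the list by fit, a log2 fold change of -0.77 (standard error 0.46). It was at 46.7 CPM in M148, at 8.55 to 23.1 CPM in the other βIgf1r mice and at 8.89 to 24.7 CPM in βIgf1rKD mice. Its log2 fold change was -0.27 without M148, -0.25 with Xist as a covariate and 0.39 with Xist and the acinar score as covariates. With the acinar score as a covariate 2 of the 18 had an unadjusted p under 0.05 and the median was 0.09, and with 1 mouse left out between 1 and 4 were higher, the 1 being reached without M148 and without M153.

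**Figure D5:**
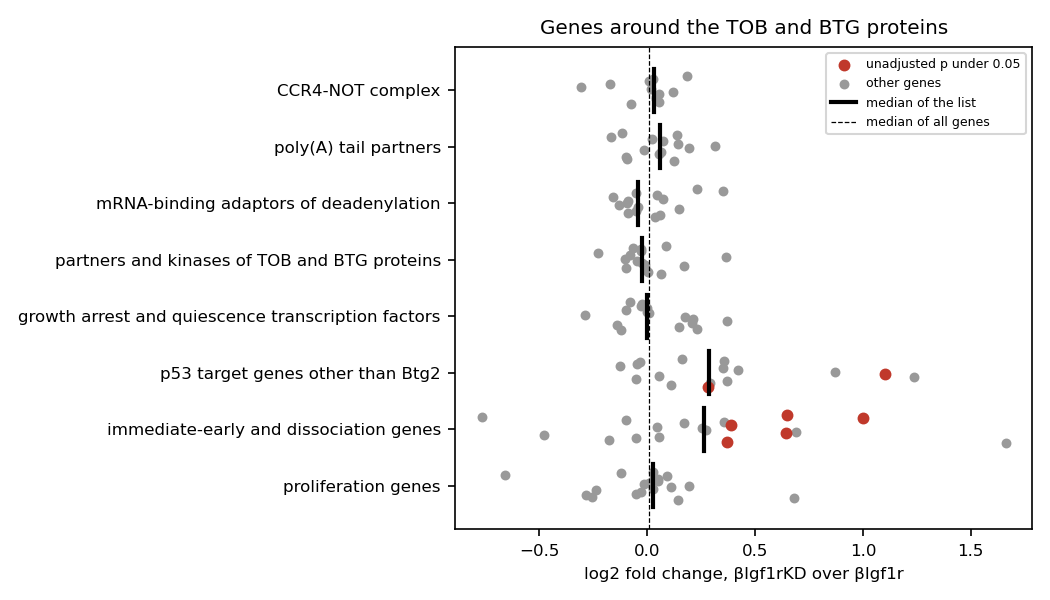
Log2 fold changes in βIgf1rKD over βIgf1r islets of the genes of the 8 lists, with genes at an unadjusted p under 0.05 in red, the median of each list as a black bar and the median of all genes as a dashed line. The medians of the CCR4-NOT and related lists lie near 0, and the 7 red points are in the p53 and immediate-early lists, whose medians are 0.29 and 0.26.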

How the data were processed

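RNA of islets from 8 mice was sequenced from TruSeq Stranded mRNA libraries. The authors deposited estimated counts per Ensembl gene, not scaled between mice. The submitters' processing notes name fastp, kallisto and GRCm38, while versions, annotation release and the summary to genes are not given in the sources used here. Of 53012 identifiers 51906 had a symbol.

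Counts were rounded, filtered by edgeR 4.0.16 (at least 10 counts, scaled to library size, in at least 4 mice and 15 in total; 15474 genes), scaled by TMM and compared in R 4.3.3 by its quasi-likelihood test, with p-values adjusted after Benjamini and Hochberg. Log2 CPM used a prior count of 2. Positions, exons and lengths are from GENCODE M21 (GRCm38), joined by identifier.

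The members and lists were chosen with earlier results of these data known. Genes named are the members, Igf1r, genes of a list with an unadjusted p under 0.05 or else the smallest p in each direction, and the 3 most correlated genes per member. Alternatives were RLE factors, counts without acinar markers, DESeq2 1.42.0, limma-voom 3.58.1, other filters, covariates and leaving out each mouse. Sequences are from RefSeq (GRCm38.p6). Plots used matplotlib 3.10.9 in Python 3.11.15.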

Additional observations from a re-analysis of the deposited data

Results flagged for a closer look

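The level of Tob1 in M148, a βIgf1r mouse, lay far from those of the other 3 of its group, at a log2 CPM of 4.85 against 5.25 to 5.31, a gap of 0.874 of the range of the group. It was the 1 such value among 54 sets of 4 mice, where chance gives about 1 in 20 sets, or 2.7. The number flagged was thus below that given by chance. The βIgf1r values of Tob1 were also among those by which it was chosen, so this value is a description only. The same mouse had the lowest acinar score and the lowest Btg2.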

How the results depend on the processing

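Btg1, Btg2 and Btg3 kept their direction under the 9 other settings with all mice and with each mouse left out. Their log2 fold changes ranged from -0.44 to -0.02, 0.08 to 0.24 and -0.25 to -0.00061. That of Tob1, which was chosen for this difference, ranged from 0.42 to 0.57. As its groups do not overlap, leaving out a mouse could not reverse it. With a mouse left out, Tob2 ranged from -0.0497 (without M146) to 0.22 and Igf1r from -0.15 to -0.01, and with Xist as a covariate Igf1r was 0.0232. For Tob2, Btg1, Btg2, Btg3 and Igf1r the adjusted p lay between 0.657 and 0.99995 under all alternatives. Genes with an adjusted p under 0.05 numbered 8 by DESeq2, 1 by limma-voom and 0 otherwise. Genes with an unadjusted p under 0.05 numbered 643 higher and 455 lower without the filter, 208 and 178 with the acinar score, and 729 higher with Xist. With a mouse left out they ranged from 188 to 646 higher and from 180 to 468 lower, and genes without overlap from 538 to 1215, since 7 mice overlap less often. Of the genes in the lists, 2 were higher with the acinar score and 2 higher and 1 lower with the acinar score and Xist, a setting added after the data were examined. DESeq2 and the fit without a filter each gave 1 lower, and with a mouse left out there were 1 to 9 higher and 0 to 2 lower. Member pairs with an adjusted p under 0.05 numbered 0 to 1, the 1 being Tob2 and Btg1 without M150. No paired analysis was possible because each mouse number occurs in 1 group only. With 4 mice a group, the 95% intervals of Tob2, Btg1, Btg2 and Btg3 include 0 and changes in either direction.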
